A study of Mus musculus with 12 samples.

Results

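The 9 genes described here, Esm1, Apln, Aplnr, Cxcr4, Unc5b, Adm, Mcam, Pdgfb and Trp53i11, are transcripts known for their enrichment in endothelial tip cells. They were taken by gene name from a count table of 21638 genes, and all 9 passed the filter, a mean count of 10 or more, that left 12577 genes for testing. RNA came from cortical endothelial cells of adult mouse brain, sorted as CD31+, CD41- and CD45-, in 12 libraries of 3 per group. The WT group carried the label WT alone, and whether its mice held Cre or received tamoxifen was not stated in the labels. The Hdac2 ECKO group, intended to lack the histone deacetylase Hdac2 in endothelium, was labelled Hdac2lox/lox:Cdh5CreERT2. The Ezh2 ECKO group, intended to lack the Polycomb methyltransferase Ezh2 in endothelium, was labelled Ezh2lox/lox:Cdh5CreERT2. The beta-catenin GOF group, intended to carry constitutively active beta-catenin, was labelled Ctnnb1lox/lox:Cdh5CreERT2. All 3 mutant lines thus used Cdh5CreERT2, a tamoxifen-inducible Cre recombinase expressed from an endothelial promoter, with 5 tamoxifen doses of 75 mg/kg and harvest of the brains after 2 months. The labels did not say whether the 3 libraries of a group came from separate animals, so p-values measure the spread between these libraries, which may be technical.

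Tip cells are the leading cells of a sprouting vessel. They extend filopodia toward VEGF-A, a growth factor made by tissue short of oxygen, and they pass Notch signals to the stalk cells that follow and build the lumen. Most endothelium of the adult brain is quiescent, and tip-cell transcripts are best known from developing, injured or tumour vessels.

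None of the 9 genes passed the test in any comparison (edgeR's quasi-likelihood F test, Benjamini-Hochberg adjusted p under 0.05 over all 12577 genes). Unc5b, a netrin receptor, was higher in all 9 mutant libraries than in any WT library, at 32.2 ± 5.05 CPM (mean ± SD, n = 3) in beta-catenin GOF, 30.1 ± 6.24 in the group labelled Ezh2 ECKO and 26.2 ± 5.69 in Hdac2 ECKO, against 15.3 ± 4.47 in WT. Esm1, the endocan gene, was at 0.504 ± 0.55 CPM in beta-catenin GOF and 6.14 ± 4.17 in WT. CPM is a gene's count per 1000000 counts, after TMM scaling of each library's total.

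Libraries held 24781070 to 36109975 counts, so that a floor of 3 counts lay between 0.0831 and 0.121 CPM. This depth counts mates of read pairs without molecular identifiers, and floors cover counting error only. Hdac2 was at 82.2 to 112 CPM in Hdac2 ECKO and 104 to 162 in WT, which overlap, with a difference of −0.42 on the log2 scale (SE 0.24) that did not pass (edgeR adjusted p = 0.22). It was at 88.5 to 108 CPM in beta-catenin GOF, where it was not targeted, with a difference of −0.43 (SE 0.24, edgeR adjusted p = 0.88). Its transcript level thus does not verify the Hdac2 ECKO label, and the group is named by that label alone. Ezh2 was at 5.19 to 11.7 CPM in the Ezh2-labelled libraries and 2.69 to 8.88 in WT, so its level did not fall with the label (log2 fold change 0.40, SE 0.46, edgeR adjusted p = 0.62). This group is therefore called the Ezh2-labelled libraries. Ctnnb1 was at 583 ± 109 CPM in beta-catenin GOF and 654 ± 138 in WT (n = 3 each). Counts over a whole gene can retain transcripts that lack a deleted exon. Pecam1, Cdh5 and Cldn5, which define endothelium, were at 102 CPM or more in every library. Cx3cr1, Tmem119 and Aif1 of microglia and Cd3e of T cells were under 1 CPM throughout. Replicates 1 and 3 of Hdac2 ECKO and of the Ezh2 label stood apart on the first principal component, which held 29.3% of the variance. Longer genes also had higher fold changes in Hdac2 ECKO against WT, with a Spearman rho of 0.44 across genes, which are not independent replicates.

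Transcripts of red cells and of the stress response to dissociation also differed, widely within groups as well as between them. Hba-a1 and Hbb-bs together were at 19594 to 33697 CPM in WT, 211 to 11717 in Hdac2 ECKO, 1454 to 3597 in the Ezh2-labelled libraries and 271 to 20821 in beta-catenin GOF, and the red-cell enzyme gene Alas2 fell in Hdac2 ECKO. Of the 10 dissociation-response genes, Junb, Atf3 and Ier2 fell in Hdac2 ECKO, Atf3 fell in the Ezh2-labelled libraries and none passed in beta-catenin GOF. Of all tested genes 5.38% fell in Hdac2 ECKO and 0.684% in the Ezh2-labelled libraries. Fold changes were above 0, without passing, for 2 of the 10 in Hdac2 ECKO (Fosb and Jun). They were above 0 for 3 in the Ezh2-labelled libraries (Fosb, Jun and Egr1) and for 0 in beta-catenin GOF. The summed level of the 10 was 3028 to 9414 CPM in WT, 1464 to 4321 in Hdac2 ECKO, 3529 to 4040 in the Ezh2-labelled libraries and 2399 to 3436 in beta-catenin GOF. Each of these calls passed in 2 of 6 fits that left a library out (edgeR adjusted p 0.091 to 0.23 where lost, without replicate 1 or 2 of WT or replicate 1 or 3 of the mutant group). Over these fits, calls among all genes numbered 0 to 2215 in Hdac2 ECKO and 2 to 2329 in the Ezh2-labelled libraries. Losses of this kind, here and below, are thus not particular to the genes named. Their part in the values of the 9 genes was not tested.

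**Figure D1:**
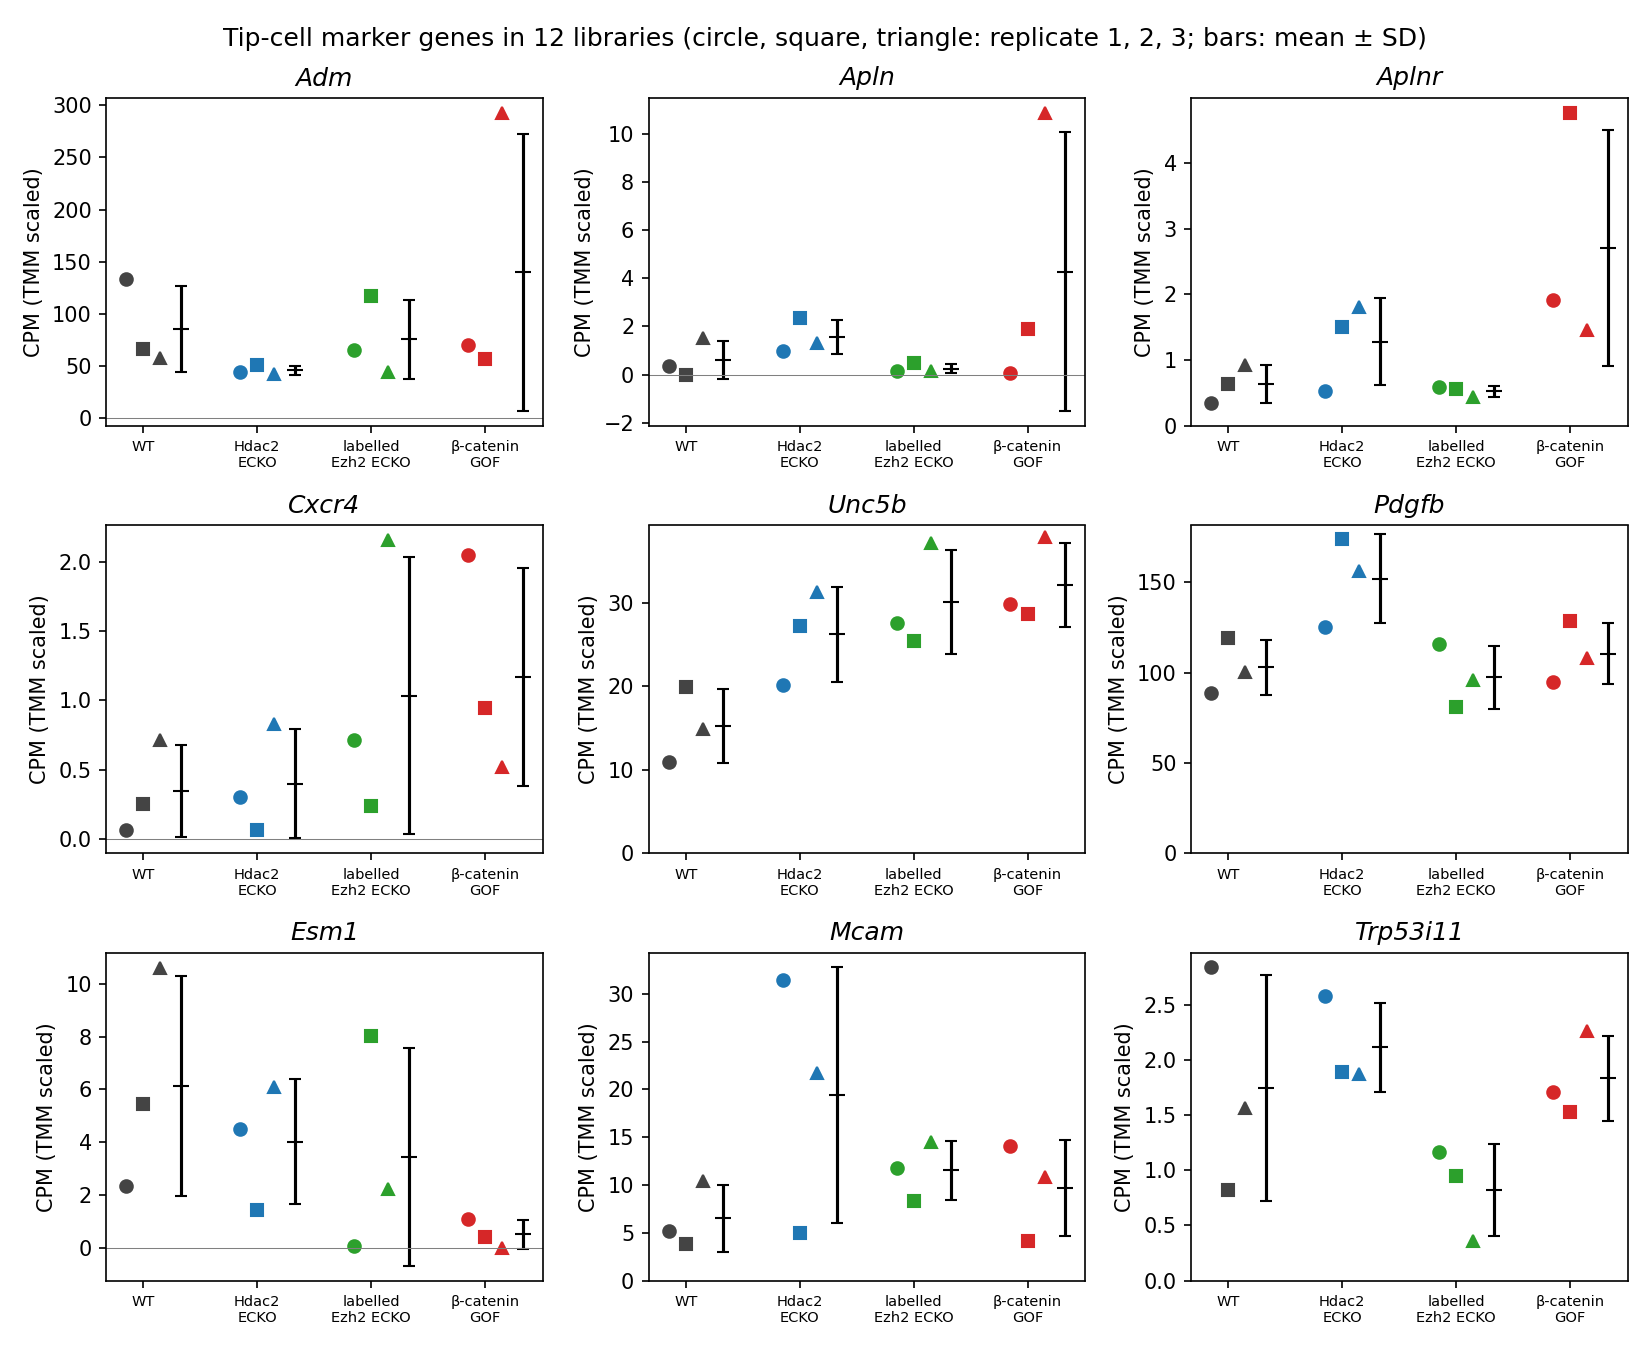
CPM of each of the 9 tip-cell genes (vertical axes, each panel with its own scale) in every library, by genotype group on the horizontal axes; symbols are libraries (circle, square and triangle for replicates 1, 2 and 3) and bars are the group mean ± SD. All 9 mutant libraries lie above the highest WT library for Unc5b, and replicate 3 of beta-catenin GOF lies far above all others for Adm and Apln.

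Levels of different genes were compared per length, as TPM, length-normalised transcript levels scaled to a common total. In WT the secreted peptide gene Adm led with 110 ± 64.4 TPM, above 90.5% of tested genes, followed by Pdgfb with 49.2 ± 8.39 TPM, above 83.5%. Esm1 (5.51 ± 3.14 TPM), Unc5b (4.83 ± 1.42) and Mcam (3.73 ± 1.55) formed a middle range, in which neighbours overlapped. Trp53i11 (0.967 ± 0.661 TPM), Apln (0.356 ± 0.422), Cxcr4 (0.351 ± 0.304) and Aplnr (0.330 ± 0.114) came last and overlapped as well (n = 3 each). Adjacent genes in this order had separate WT ranges at 3 points: Adm over Pdgfb, Pdgfb over Esm1, and Mcam over Trp53i11. Thus the 2 most abundant of the 9 transcripts in WT encoded secreted ligands. In Hdac2 ECKO Pdgfb led with 97.2 TPM and Adm followed with 75.1 TPM. In beta-catenin GOF Esm1 had the lowest mean of the 9, 0.469 TPM, but its values of 0.933, 0.474 and 0 TPM overlapped those of its neighbours Trp53i11 and Cxcr4, and in replicate 1 Apln, Trp53i11 and Aplnr were lower. In sorted bulk RNA, a lower share of cells of a type and less RNA per cell cannot be told apart.

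Beta-catenin acts with TCF/LEF proteins, hypoxia acts through hypoxia-inducible factors, and Notch acts through RBPJ. Promoter windows were therefore searched for the letters these factors are known to bind, and are printed for 4 genes: Unc5b and Esm1, which separated all beta-catenin GOF libraries from WT, and Adm and Apln, which were high in a single library. RefSeq windows on GRCm38.p6, 250 bases upstream of the start, were matched for 7 of the 9 genes: Esm1, Apln, Cxcr4, Unc5b, Adm, Mcam and Trp53i11. Aplnr and Pdgfb were not matched. The 4 windows are chr13:113209409-113209658 (plus strand, Esm1), chr10:60831582-60831831 (minus strand, Unc5b), chr7:110627407-110627656 (plus strand, Adm) and chrX:48034854-48035103 (minus strand, Apln). Each reads 5′ to 3′ along its gene in lower case. Capitals mark the match to the searched TCF/LEF letters in Esm1 and the match to the RBPJ letters in Adm.
Esm1: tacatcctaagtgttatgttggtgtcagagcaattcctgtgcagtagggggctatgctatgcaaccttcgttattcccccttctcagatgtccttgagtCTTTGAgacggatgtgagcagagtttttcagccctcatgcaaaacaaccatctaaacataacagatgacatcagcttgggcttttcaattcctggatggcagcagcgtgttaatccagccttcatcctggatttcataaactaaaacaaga
Unc5b: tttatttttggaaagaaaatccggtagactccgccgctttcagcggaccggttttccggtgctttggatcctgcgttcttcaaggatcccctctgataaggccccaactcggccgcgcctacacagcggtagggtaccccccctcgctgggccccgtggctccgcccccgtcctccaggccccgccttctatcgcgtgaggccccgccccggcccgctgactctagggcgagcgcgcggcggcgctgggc
Adm: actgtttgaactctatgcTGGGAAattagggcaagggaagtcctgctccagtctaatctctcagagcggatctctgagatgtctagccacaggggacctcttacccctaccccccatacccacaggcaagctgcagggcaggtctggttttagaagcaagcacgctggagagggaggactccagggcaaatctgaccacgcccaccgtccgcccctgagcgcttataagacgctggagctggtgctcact
Apln: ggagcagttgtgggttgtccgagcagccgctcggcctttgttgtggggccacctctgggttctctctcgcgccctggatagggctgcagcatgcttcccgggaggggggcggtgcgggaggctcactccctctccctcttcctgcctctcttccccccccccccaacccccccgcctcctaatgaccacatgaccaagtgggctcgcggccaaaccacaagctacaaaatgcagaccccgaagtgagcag
Letters were searched on both strands. CTTTGA (reverse complement TCAAAG), 1 form of the TCF/LEF core, stood in the Esm1 window alone of the 7, 151 bases before the start, and in 13.8% of all 32851 windows of this length. The form CTTTGT (reverse complement ACAAAG) was not searched, and it can be read in the printed Apln window. Absence of CTTTGA is therefore not absence of TCF/LEF letters. TGGGAA (reverse complement TTCCCA), of RBPJ, stood in the Adm window alone of the 7, 232 bases before the start, and in 21.6% of all windows. ACGTG (reverse complement CACGT), 1 form of the core of the hypoxia response element, was in none of the 7 and in 16.6% of all windows. The other form, GCGTG (reverse complement CACGC), was not searched, and it can be read in the printed Esm1, Unc5b and Adm windows. Absence of ACGTG is therefore not absence of the core. GGAA (reverse complement TTCC), the ETS core that TGGGAA contains, was in all 7 and in 93.4% of all windows, with 3 matches each in Esm1 and Apln, 2 each in Unc5b and Adm, and 1 each in Cxcr4, Mcam and Trp53i11. A match describes letters in the window and is not a binding site.

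Esm1 (ENSMUSG00000042379.8, GRCm38 chromosome 13, 113209659 to 113218098, plus strand) encodes endocan, a secreted proteoglycan induced by VEGF-A in tip cells. It was at 2.36, 5.44 and 10.6 CPM in the WT libraries 1 to 3, and at 1.09, 0.422 and 0 CPM in beta-catenin GOF, from raw counts of 32, 16 and 0. All 3 beta-catenin GOF libraries lay below the lowest WT library, and replicate 3, with none of its counts in Esm1, allows up to 0.0871 CPM (3 counts). The log2 fold change was −3.61 (SE 1.27, 95% confidence interval −6.32 to −0.90), with an unadjusted p of 0.012 and an adjusted p of 0.71 by edgeR. Without the filter on low counts the same difference had an adjusted p of 5.68e-05. Hdac2 ECKO had 4.5, 1.44 and 6.10 CPM, and the Ezh2-labelled libraries had 0.0648, 8.02 and 2.23 CPM. Both sets overlapped WT, with log2 fold changes of −0.61 (SE 1.13) and −0.84 (SE 1.14). Beta-catenin GOF also lay below every Hdac2 ECKO library, with a log2 difference of −3.0 (SE 1.25, edgeR adjusted p = 0.20). The Esm1 gene overlaps Gzmk on the opposite strand, and whether the counting used strand is not given in the sources used here.

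Apln (ENSMUSG00000037010.7, chromosome X, 48025146 to 48034853, minus strand) encodes apelin, the peptide ligand that tip cells secrete for the receptor Aplnr. It was low in WT, at 0.347, 0 and 1.49 CPM, where the library with no count allows up to 0.0950 CPM (3 counts). In beta-catenin GOF it was at 0.0682, 1.90 and 10.9 CPM, where the highest library held 374 counts and 4.62 times the CPM of the next highest library of the series. The log2 difference from WT, 2.80 (SE 1.40, edgeR adjusted p = 0.85), was 0.69 without that library. Hdac2 ECKO held 0.984, 2.35 and 1.32 CPM, which overlap WT, and the Ezh2-labelled libraries held 0.130, 0.472 and 0.144 CPM, from 4, 12 and 4 counts. Replicate 1 of beta-catenin GOF, with 2 counts, was under the floor of 3 counts. All Hdac2 ECKO libraries stood above all Ezh2-labelled libraries for Apln.

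Adm (ENSMUSG00000030790.15, chromosome 7, 110627661 to 110629820, plus strand) encodes adrenomedullin, a secreted peptide that acts on endothelium through Calcrl with Ramp2 or Ramp3 and that hypoxia induces. It was at 133, 66.8 and 57.8 CPM in WT and at 44.1, 51.0 and 42.7 CPM in Hdac2 ECKO. All Hdac2 ECKO libraries thus lay below the lowest WT library, and the log2 fold change was −0.90 (SE 0.53, edgeR adjusted p = 0.24). It was −0.44 (adjusted p = 0.66) without replicate 1 of WT and −0.35 (adjusted p = 0.70) with the length and GC trend removed, and passed with no filter on low counts (−0.92, edgeR adjusted p = 0.026). The Ezh2-labelled libraries, at 65.4, 117 and 44.1 CPM, overlapped WT (log2 fold change −0.18, SE 0.52). Beta-catenin GOF was at 69.8, 57.0 and 293 CPM. Its mean of 140 ± 133 CPM rested on replicate 3, and the log2 difference from WT, 0.70 (SE 0.53, edgeR adjusted p = 0.91), turned to −0.44 without it. Beta-catenin GOF lay above every Hdac2 ECKO library (log2 difference 1.61, SE 0.54, edgeR adjusted p = 0.17). The antisense transcript Gm28863 overlaps Adm.

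Replicate 3 of beta-catenin GOF, highest for Adm and Apln and at 0 for Esm1, also differed from the others in related transcripts. Angpt2, which encodes the tip-cell ligand angiopoietin-2, was at 68.8 CPM there and at 4.06 to 16.6 CPM in the other 11 libraries. The summed level of 20 hypoxia-induced genes was 4775 CPM there and 2303 to 3161 CPM elsewhere, with Bnip3 at 1132 CPM against 274 to 543. Their part in the Adm and Apln values of this library was not tested.

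**Figure D2:**
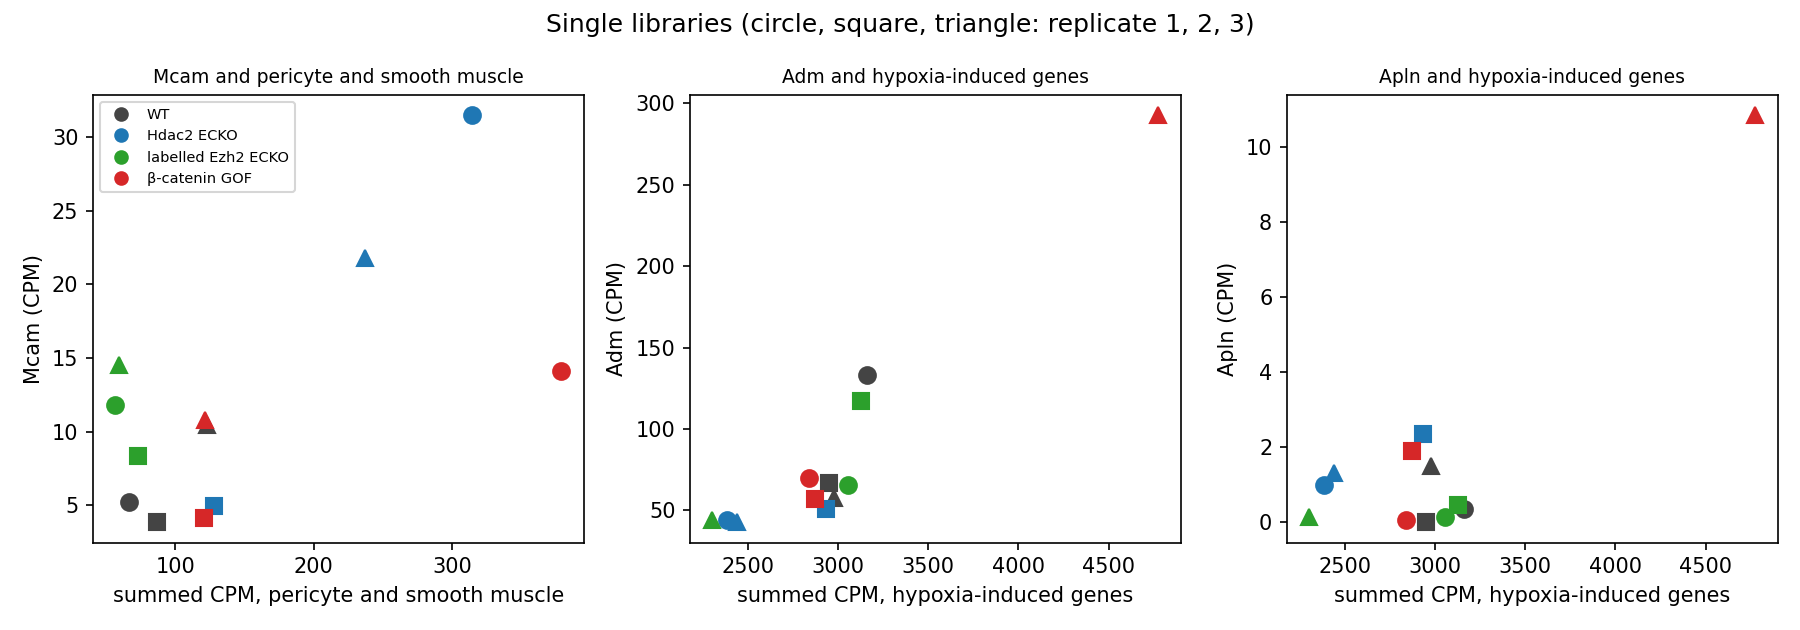
Mcam CPM against the summed CPM of pericyte and smooth-muscle markers, and Adm and Apln CPM against the summed CPM of the hypoxia-induced list, per library; colours are groups and circle, square and triangle are replicates 1, 2 and 3. Replicates 1 and 3 of Hdac2 ECKO have the highest Mcam values, and replicate 3 of beta-catenin GOF, with a hypoxia sum of 4775 CPM, has the highest Adm and Apln values.

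Pdgfb (ENSMUSG00000000489.7, chromosome 15, 79995874 to 80014977, minus strand) encodes the growth factor by which sprouting endothelium recruits pericytes through the receptor Pdgfrb. It was at 88.9, 119 and 101 CPM in WT and at 125, 174 and 156 CPM in Hdac2 ECKO, all 3 above the highest WT library. The log2 fold change was 0.56 (SE 0.24, 95% confidence interval 0.06 to 1.07), with an unadjusted p of 0.031 and an adjusted p of 0.12 by edgeR. The Ezh2-labelled libraries (116, 80.7 and 95.8 CPM) and beta-catenin GOF (94.9, 128 and 108 CPM) overlapped WT, with log2 fold changes of −0.08 and 0.10 (SE 0.24 each). Pdgfb had the narrowest spread of the 9 genes in WT relative to its mean (SD 15.4 for a mean of 103 CPM). Mir7213 and the antisense transcript Gm41361 overlap the gene.

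Aplnr (ENSMUSG00000044338.9, chromosome 2, 85136225 to 85139923, plus strand), the apelin receptor, marks venous and sprouting endothelium. It was at 0.347, 0.633 and 0.925 CPM in WT and at 1.91, 4.77 and 1.45 CPM in beta-catenin GOF. The groups did not overlap, and the log2 fold change was 2.09 (SE 0.81), with an unadjusted p of 0.021 and an adjusted p of 0.76 by edgeR. The beta-catenin GOF values rested on 50 to 181 counts and those of WT on 10 to 26. Hdac2 ECKO (0.530, 1.5 and 1.80 CPM) and the Ezh2-labelled libraries (0.583, 0.551 and 0.431 CPM) overlapped WT, at log2 fold changes of 1.01 (SE 0.80) and −0.28 (SE 0.80). Beta-catenin GOF lay above every Ezh2-labelled library (log2 difference 2.37, SE 0.82, edgeR adjusted p = 0.30).

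Cxcr4 (ENSMUSG00000045382.6, chromosome 1, 128588199 to 128592293, minus strand) is the receptor for the chemokine Cxcl12. It was at 0.0694, 0.253 and 0.712 CPM in WT, from 2, 8 and 20 counts, so that replicate 1 was under the floor of 3 counts. Beta-catenin GOF held 2.05, 0.949 and 0.522 CPM, the Ezh2-labelled libraries 0.713, 0.236 and 2.15, and Hdac2 ECKO 0.303, 0.0652 and 0.832. All 3 mutant groups overlapped WT. The log2 fold changes were 1.75 (SE 1.18), 1.58 (SE 1.18) and 0.21 (SE 1.17), and differences of that size were not detectable at this depth and spread.

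Unc5b (ENSMUSG00000020099.8, chromosome 10, 60762593 to 60831581, minus strand) encodes a netrin receptor of tip and arterial endothelium that also binds Robo4. It was at 11.0, 19.9 and 14.9 CPM in WT. It was at 20.1, 27.2 and 31.4 CPM in Hdac2 ECKO, at 27.6, 25.5 and 37.2 CPM in the Ezh2-labelled libraries and at 29.9, 28.6 and 38.0 CPM in beta-catenin GOF. All 9 mutant libraries were above the highest WT library, by a narrow margin in replicate 1 of Hdac2 ECKO, a pattern shown by 1.99% of tested genes (250 of 12577). The 3 comparisons share the WT libraries. The log2 fold change was 0.78 (SE 0.29) in Hdac2 ECKO, 0.98 (SE 0.29) in the Ezh2-labelled libraries and 1.08 (SE 0.29) in beta-catenin GOF. The unadjusted p-values by edgeR were 0.016, 0.004 and 0.002, and the adjusted ones 0.083, 0.079 and 0.54. In beta-catenin GOF, where no gene passed, Unc5b ranked 45 of 12577 by p. Jag2, which encodes a Notch ligand, had the CPM pattern most like that of Unc5b (Pearson r of log2(CPM + 1) 0.91 over 12 libraries, among the 9836 genes averaging 100 counts or more), followed by Skiv2l (0.88) and Rapgef1 (0.86). For the other tip-cell genes the likest gene had an r from 0.82 (Cxcr4) to 0.95 (Mcam). A value of this size is thus not particular to Jag2 and Unc5b. The transcript Gm19972 overlaps Unc5b.

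Mcam (ENSMUSG00000032135.15, chromosome 9, 44134469 to 44142727, plus strand) encodes CD146, an adhesion molecule of endothelium, pericytes and smooth muscle. It was at 5.20, 3.86 and 10.5 CPM in WT and at 31.5, 4.96 and 21.8 CPM in Hdac2 ECKO. Replicates 1 and 3 of Hdac2 ECKO were the highest of the series and replicate 2 lay within the WT range. The log2 fold change was 1.57 (SE 0.58, 95% confidence interval 0.33 to 2.82), with an unadjusted p of 0.016 and an adjusted p of 0.083 by edgeR. Without replicate 2 of Hdac2 ECKO it was 1.99 with an adjusted p of 0.019, and without replicate 3 of WT 2.10 with an adjusted p of 0.049. Without replicate 1 of Hdac2 ECKO it was 1.01 (edgeR adjusted p = 0.33), and the call was not made in 4 of the 6 such fits. The Ezh2-labelled libraries held 11.8, 8.34 and 14.5 CPM and beta-catenin GOF 14.1, 4.17 and 10.8 CPM, both overlapping WT (log2 fold changes 0.83 and 0.57). The antisense transcript Gm10687 overlaps Mcam.

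The 10 markers of pericytes and smooth muscle summed to 67.0, 86.9 and 123 CPM in WT and to 314, 128 and 237 CPM in Hdac2 ECKO, where the replicates stood in the same order as for Mcam. They summed to 56.8, 72.9 and 59.2 CPM in the Ezh2-labelled libraries and to 379, 120.8 and 121.5 CPM in beta-catenin GOF. The order of replicates matched that of Mcam in beta-catenin GOF as well, and did not match in WT or in the Ezh2-labelled libraries. In the latter, Mcam was above its WT mean at lower sums than most WT libraries. The highest sum of the series, 379 CPM, went with an Mcam level of 14.1 CPM, the highest of beta-catenin GOF. Of the 9 of them that were tested, Pdgfrb, Cspg4, Rgs5 and Myh11 rose in Hdac2 ECKO (4 of 9, where 3.82% of all tested genes rose; list median 1.40 on the log2 scale), and none passed in the Ezh2-labelled libraries or in beta-catenin GOF (medians 0.07 and 1.29). With a library left out, these 4 calls passed in 1 (Cspg4) or 2 of 6 fits and were lost without replicate 1 or 2 of WT or replicate 1 or 3 of Hdac2 ECKO, that of Cspg4 also without replicate 3 of WT (edgeR adjusted p 0.058 to 0.22 where lost). Anpep alone was under 1 CPM in every library, and none was at 0 throughout. The part of these cells in the Mcam values was not tested.

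Trp53i11 (ENSMUSG00000068735.14, chromosome 2, 93187548 to 93201759, plus strand), a p53-inducible gene, was at 2.84, 0.823 and 1.57 CPM in WT. Hdac2 ECKO held 2.57, 1.89 and 1.87 CPM, beta-catenin GOF 1.70, 1.53 and 2.26, and the Ezh2-labelled libraries 1.17, 0.944 and 0.359. Each mutant group overlapped WT, with log2 fold changes of 0.28 (SE 0.70), 0.07 (SE 0.70) and −1.08 (SE 0.71). The Ezh2-labelled libraries were below all those of Hdac2 ECKO and of beta-catenin GOF.

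In Hdac2 ECKO against WT, 0 of the 9 genes passed the test, where 9.2% of all tested genes did. Unc5b, Mcam and Pdgfb had an unadjusted p under 0.05 by edgeR (3 of 9, against 33.1% of tested genes). Values of 2 genes lay wholly above WT (19.5% of tested genes) and of 1 wholly below (18.2%). Fold changes were above 0 for 7 of 9, where 54% of tested genes were, and the median log2 fold change was 0.56 against 0.10 over all tested genes.

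In the Ezh2-labelled libraries against WT, 0 of 9 passed, where 1.03% of tested genes did (0.342% higher and 0.684% lower). Unc5b had an unadjusted p under 0.05 by edgeR (1 of 9, against 24.7%). It was also the single gene of the 9 with values wholly above WT (11.1% of tested genes). The median log2 fold change was −0.18 against 0.05 over all tested genes, with 3 of 9 above 0 (52.6% of tested genes).

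In beta-catenin GOF against WT, 0 of 9 and 0% of tested genes passed. Esm1, Aplnr and Unc5b had an unadjusted p under 0.05 (3 of 9, against 6.06% of tested genes), and DESeq2 called 0 of 9. Aplnr and Unc5b lay wholly above WT (6.83% of tested genes) and Esm1 wholly below (5.87%). Fold changes were above 0 for 8 of 9, where 51.1% of tested genes were, and the median was 0.70 against 0.01 over all tested genes. This median is the value of Adm, which turned to −0.44 without replicate 3 of beta-catenin GOF. Pdgfb (0.10) and Trp53i11 (0.07) also changed sign in fits that left a library out.

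The mutant groups were also compared with each other. For Hdac2 ECKO minus Ezh2-labelled, 0 of 9 genes passed, where 0.0239% of tested genes did. Pdgfb alone had an unadjusted p under 0.05 by edgeR (8.19% of tested genes), with a log2 difference of 0.64 (SE 0.24, adjusted p = 0.54). Apln, Pdgfb and Trp53i11 were wholly higher (7.78% of tested genes) and none was wholly lower (5.42%), and 6 of 9 differences were above 0 (51.3%).

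For beta-catenin GOF minus Hdac2 ECKO, 0 of 9 passed, where 0.0716% of tested genes did. Esm1 and Adm had an unadjusted p under 0.05 by edgeR (2 of 9, against 21.1% of tested genes). Adm was wholly higher (16.1% of tested genes) and Esm1 wholly lower (15.9%), and 5 of 9 differences were above 0 (45.7%).

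For beta-catenin GOF minus Ezh2-labelled, 0 of 9 passed, where 0.0636% of tested genes did. Esm1, Apln and Aplnr had an unadjusted p under 0.05 by edgeR (3 of 9, against 13.2% of tested genes), and Apln differed by 4.10 (SE 1.5, adjusted p = 0.31). Aplnr and Trp53i11 were wholly higher (7.97% of tested genes), none was wholly lower (8.69%), and 7 of 9 differences were above 0 (48.7%).

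**Figure D3:**
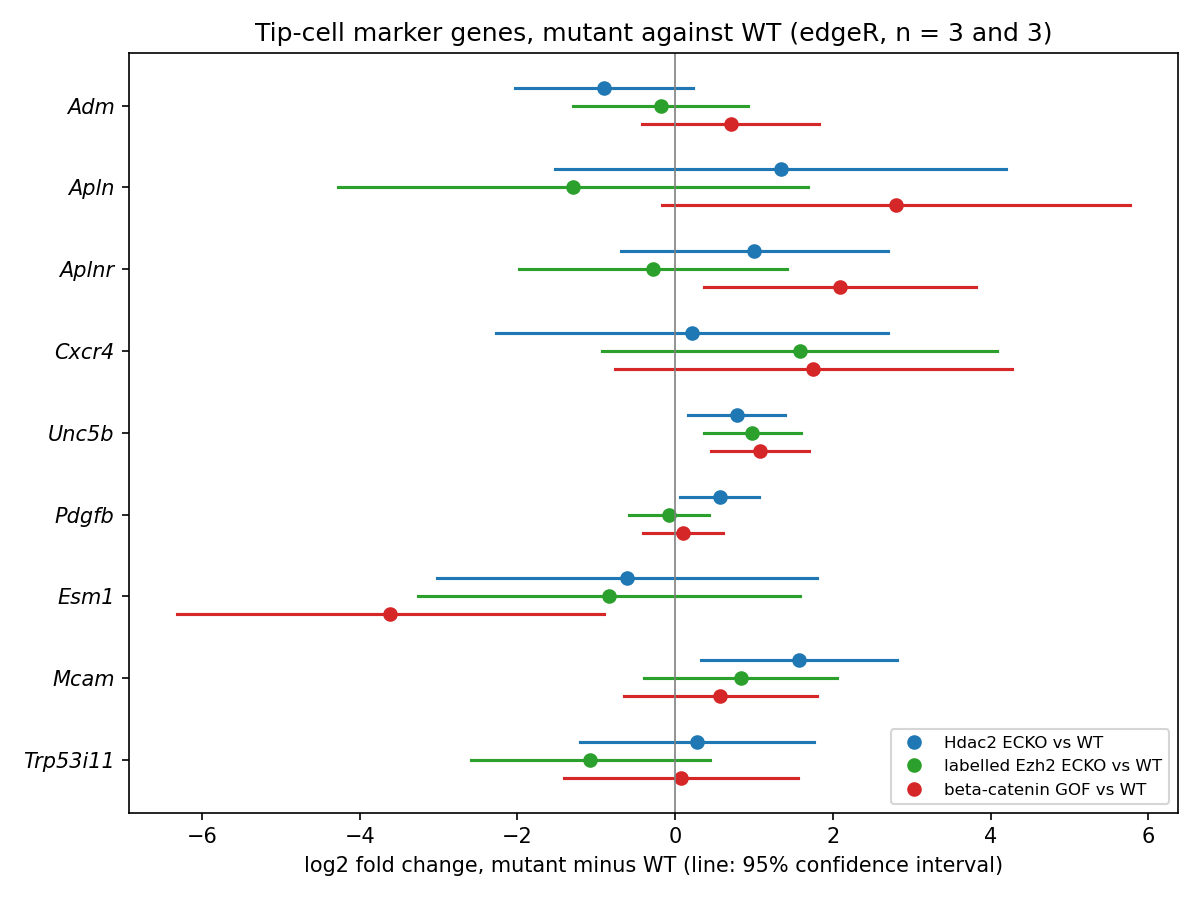
Log2 fold change against WT of each tip-cell gene (horizontal axis) with its 95% confidence interval, for the 3 mutant groups in separate colours. No gene passed the adjusted threshold; the interval of Unc5b lies above 0 in all 3 groups, and that of Esm1 lies below 0 in beta-catenin GOF.

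Ligands, receptors and co-receptors of the 9 genes were examined as a list of 20 partners, of which 17 were tested. In Hdac2 ECKO 3 rose and 1 fell, with a median log2 fold change of 0.68, where 3.82% of all tested genes rose and 5.38% fell. In the Ezh2-labelled libraries and in beta-catenin GOF none passed, with medians of 0.45 and 0.13. Medians over all tested genes were 0.10 in Hdac2 ECKO, 0.05 in the Ezh2-labelled libraries and 0.01 in beta-catenin GOF. Robo4, the endothelial receptor that binds Unc5b, was at 47.0, 53.4 and 50.1 CPM in WT libraries and had 85.4, 82.0 and 94.3 in Hdac2 ECKO, a rise of 0.80 on the log2 scale (SE 0.22, edgeR adjusted p = 0.040). Ramp3, the adrenomedullin co-receptor, was at 16.8, 22.3 and 12.6 CPM in WT libraries against 2.23, 2.54 and 2.08 in Hdac2 ECKO, and fell by 2.91 (SE 0.70, edgeR adjusted p = 0.034). Neither gene's groups overlapped.

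Lama4, the laminin chain that Mcam binds, was at 19.9, 17.7 and 17.0 CPM in WT libraries against 43.6, 40.4 and 32.9 in Hdac2 ECKO, a log2 rise of 1.10 (SE 0.26, edgeR adjusted p = 0.034). With the length and GC trend removed its change was 0.40 with an adjusted p of 0.33. Pdgfrb, the PDGF-B receptor of pericytes, was at 0.555, 0.0633 and 0.427 CPM in WT libraries against 10.5, 2.67 and 5.13 in Hdac2 ECKO, a log2 rise of 4.12 (SE 0.92, edgeR adjusted p = 0.034). It belongs to the pericyte markers above, whose sum moved with it. Each of these 4 calls was lost when replicate 1 or 2 of WT, or replicate 1 or 3 of Hdac2 ECKO, was left out, at adjusted p-values of 0.098 to 0.16 by edgeR. The called marker genes were lost in the same fits, so these losses are not particular to the 4 genes. Robo4 also missed the threshold without the filter on low counts (0.78, edgeR adjusted p = 0.076). In the Ezh2-labelled libraries and beta-catenin GOF none of the 4 passed. Robo4 still lay above every WT library in both groups (log2 fold changes 0.50 and 0.39), as did Lama4 (0.45 and 0.61). Pdgfrb lay above WT in beta-catenin GOF (3.10) but not in the Ezh2-labelled libraries, and Ramp3 overlapped WT in both. Of all tested genes 11.1% and 6.83% lay wholly above WT in these 2 groups.

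Other direct partners did not pass. Cxcl12, the Cxcr4 ligand, was at 519, 520 and 522 CPM in WT, and its lowest values were 775 CPM in Hdac2 ECKO, 665 in the Ezh2-labelled libraries and 553 in beta-catenin GOF. All 9 mutant values thus exceeded WT, with edgeR adjusted p-values of 0.051, 0.14 and 0.89. Ackr3, the scavenging receptor for Cxcl12, overlapped WT in every group. Calcrl, the adrenomedullin receptor, averaged 170 CPM in WT against 306 in Hdac2 ECKO (a difference of 0.84 on the log2 scale, SE 0.33, edgeR adjusted p = 0.097). Its co-receptor Ramp2 was lower in all Hdac2 ECKO libraries than in WT (log2 fold change −1.04, SE 0.36, edgeR adjusted p = 0.069). The Unc5b ligand Ntn1 averaged 6.98 CPM in WT against 3.74 in beta-catenin GOF, without overlap (log2 fold change −0.90, SE 0.42, edgeR adjusted p = 0.82). Ntn4 overlapped WT in every group.

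Among 30 other tip-cell genes, 28 were tested. In Hdac2 ECKO 3 rose and 2 fell (median log2 fold change 0.53), where 3.82% of all tested genes rose and 5.38% fell. None passed in the Ezh2-labelled libraries (median 0.15) or in beta-catenin GOF (median 0.22). Medians over all tested genes were 0.10, 0.05 and 0.01 in these 3 comparisons. Robo4, Ramp3 and Lama4 are on this list as well. The others were Cd34, a sialomucin of tip-cell filopodia, which fell by 1.27 (SE 0.32, edgeR adjusted p = 0.036), and Nid2, a basement-membrane nidogen, which rose by 1.30 (SE 0.38, edgeR adjusted p = 0.046) and overlaps Rtraf on the opposite strand. Both calls were lost without replicate 1 or 2 of WT or replicate 1 or 3 of Hdac2 ECKO (edgeR adjusted p 0.10 to 0.18), and that of Nid2 also with the length and GC trend removed (1.20, adjusted p = 0.073) or with median-ratio factors (0.051). Dll4, the Notch ligand of tip cells, was at 27.0 CPM in WT and 28.9 to 31.6 CPM in the mutant groups, overlapping throughout. Kdr, the main VEGF-A receptor, averaged 227 CPM in WT against 363 in Hdac2 ECKO (a difference of 0.68 on the log2 scale, SE 0.28, edgeR adjusted p = 0.11).

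Of 16 stalk-cell and Notch genes, 2 fell in Hdac2 ECKO, namely Id1 (by 1.36) and Id3 (by 1.29), which encode inhibitors of DNA binding downstream of BMP, with edgeR adjusted p-values of 0.046 and 0.042. None passed in the other 2 groups, and the list medians were 0.46, 0.38 and 0.16 in Hdac2 ECKO, the Ezh2 label and beta-catenin GOF. Of all tested genes 5.38% fell in Hdac2 ECKO, and their medians were 0.10, 0.05 and 0.01 in the same order. Of 20 hypoxia-induced genes 17 were tested. In Hdac2 ECKO Kdm3a, a histone demethylase, rose by 0.94 and Eno1, a glycolytic enzyme, fell by 1.84 (edgeR adjusted p-values 0.036 and 0.043). In the Ezh2-labelled libraries Pdk1, a kinase that inhibits pyruvate dehydrogenase, rose by 1.89 (edgeR adjusted p = 0.048). Of all tested genes 3.82% rose and 5.38% fell in Hdac2 ECKO, and 0.342% rose in the Ezh2-labelled libraries. None passed in beta-catenin GOF. The 4 Hdac2 ECKO calls were lost without replicate 1 or 2 of WT or replicate 1 or 3 of Hdac2 ECKO (edgeR adjusted p 0.11 to 0.18), and that of Id1 also without replicate 3 of WT (0.052). With the length and GC trend removed Kdm3a was at 0.42 (adjusted p = 0.19) and Id3 at −0.67 (adjusted p = 0.091). The Pdk1 call was lost without replicate 1 or 2 of WT or replicate 1 or 3 of the Ezh2-labelled libraries (edgeR adjusted p 0.12 to 0.17), and with median-ratio factors (0.051), library size alone (0.053) or only the groups compared (0.088). Eno1 missed the threshold with library size alone (−1.57, edgeR adjusted p = 0.051).

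**Figure D4:**
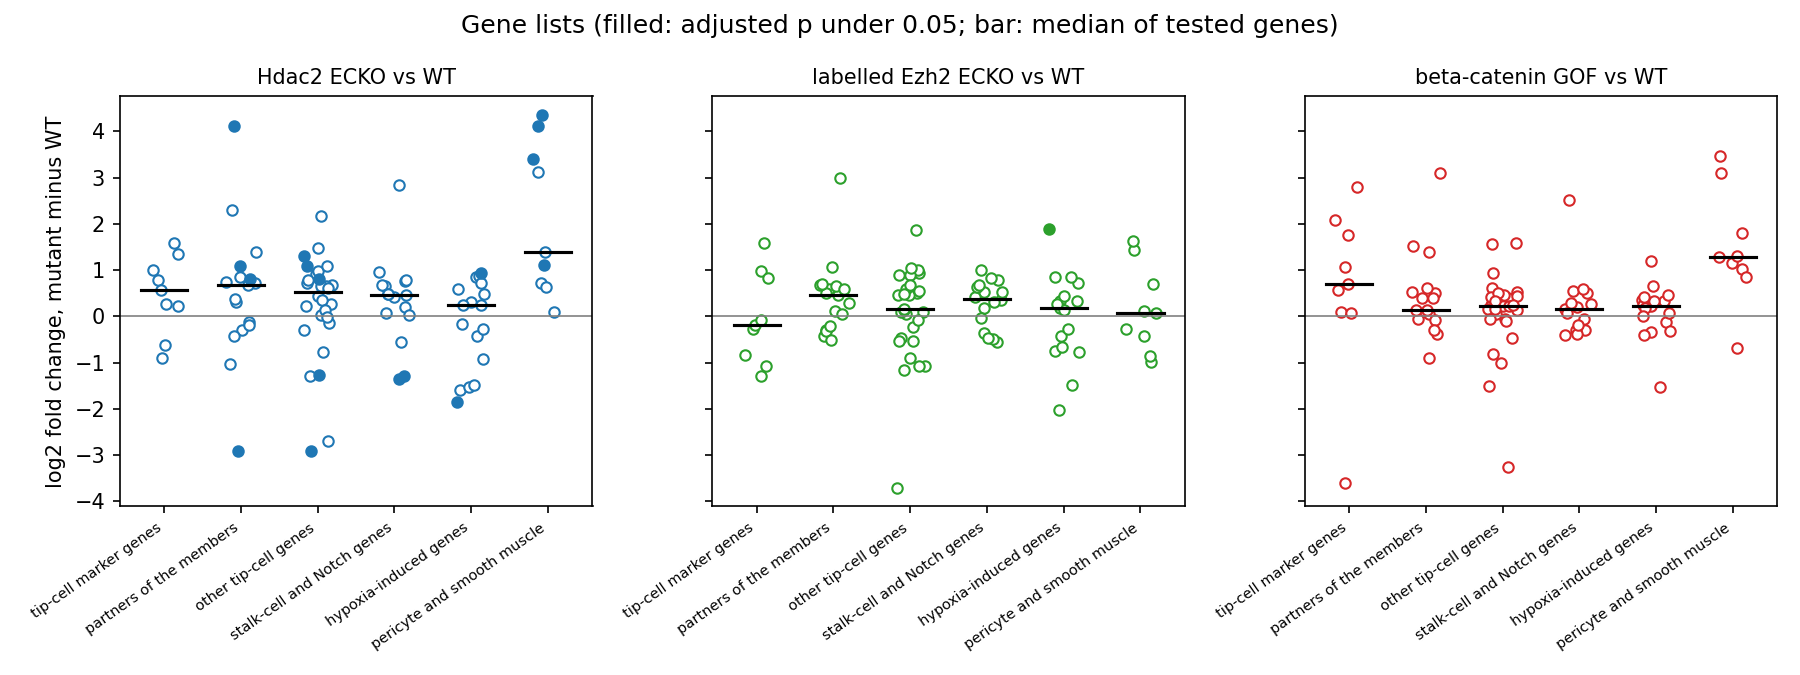
Log2 fold change against WT of every tested gene among the 9 tip-cell genes, their partners and the other tip-cell, stalk-cell and Notch, hypoxia and pericyte and smooth-muscle lists (vertical axis), 1 panel per comparison; filled points passed the adjusted threshold of 0.05 and bars are list medians. None of the 9 is filled in any panel. The other lists hold filled points in Hdac2 ECKO against WT, where 9.2% of all tested genes passed, and 0 of 9 is near that share.

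Over the 12 libraries, the 36 pairs among the 9 genes were compared by the correlation of their log2 levels, and none passed a permutation test after adjustment (smallest adjusted p 0.69 for Pearson's r and 0.61 for Spearman's rho). Cxcr4 and Unc5b had r = 0.54 (permutation p = 0.066), rho = 0.64 (permutation p = 0.029), and r = 0.42 without the 2 libraries farthest from the median. The ligand Apln and Adm had r = 0.48 but rho = −0.11, and r = −0.33 without the 2 farthest libraries, so that the Pearson value rested on those libraries.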

How the data were processed

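The authors' deposited table held 1 value per gene and library for 21638 genes, with gene length in bases. Its title calls the values normalized, but all were whole numbers with unequal library totals. Even numbers made up 79.5% to 84.0% of deposited counts between 10 and 50 and 59.4% to 67.1% between 300 and 1000, a trace of counting 2 mates per fragment, so they were used as raw counts. FastQC, cutadapt, STAR, featureCounts, DESeq2 and mm10 are listed per the submitters' processing notes. Versions and strand use are not given in the sources used here. Gene positions equalled GENCODE M21 for 98.4% of genes. Counts within each group differed far beyond sampling noise (chi-square per degree of freedom at least 62.6).

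The main test was edgeR 4.0.16 (R 4.3.3), quasi-likelihood F test with TMM scaling, 1 term per group over 12 libraries, a minimum mean count of 10, and Benjamini-Hochberg adjustment within each of 6 contrasts at 0.05. TPM used the deposited lengths. Alternatives were median-ratio factors, library size alone, no filter, a minimum mean count of 50, DESeq2 1.42.0, limma 3.58.1 on log2(CPM + 1) or with 0.1, sample quality weights, only the groups compared, a replicate block, a length and GC correction (mgcv 1.9.3), and each library left out. Named were all 9 genes, their partners, list genes past the threshold, and for the gene discussed its 3 likest genes. The fits were tested on simulated data. The 9 genes and the lists were chosen with earlier results of these data known. Groups and replicate numbers came from the sample titles.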

Additional observations from a re-analysis of the deposited data

How the results depend on the processing

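None of the 9 tip-cell genes passed in the main analysis of any of the 6 comparisons. In Hdac2 ECKO against WT, 2 passed with library size alone, 2 with no filter, 1 by DESeq2 and 3 with sample quality weights. With each library left out the count was 0 to 1, with 1 without WT replicate 3 or without Hdac2 ECKO replicate 2. In the Ezh2-labelled libraries against WT, 1 passed by DESeq2, 1 with sample quality weights and 1 with the length and GC trend removed, and 0 to 1 with each library left out, with 1 without Ezh2 ECKO replicate 2. In beta-catenin GOF against WT 1 passed with no filter (Esm1). Against Hdac2 ECKO, 2 passed with no filter, 1 by DESeq2 and 2 with quality weights, and against the Ezh2 label 2 with no filter. Mcam passed in Hdac2 ECKO with library size alone (1.81, adjusted p = 0.046 by edgeR), and Unc5b passed in the Ezh2-labelled libraries by DESeq2 (adjusted p = 0.026). The range over left-out libraries was 1.01 to 2.10 for Mcam and −1.12 to −0.44 for Adm in Hdac2 ECKO. The cause of these changes was not tested. Over the settings with all libraries, calls among all genes ran from 814 to 5374 in Hdac2 ECKO and 17 to 3743 in the Ezh2-labelled libraries, each against WT. For beta-catenin GOF they ran from 0 to 157 against WT, 1 to 3339 against Hdac2 ECKO and 10 to 1462 against the Ezh2 label. The counts of the 9 were not set beside the share of all genes in each setting.

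Replicate numbers were not used to pair the libraries in the main test. No comparison had all 3 correlations of deviations above 0.1 (range −0.14 to 0.27), a cutoff that cannot exclude pairing. The largest were 0.27 and 0.15, and Hdac2 ECKO against the Ezh2 label had 0.10, 0.27 and 0.063. With the replicate block 1 gene, Mcam, passed in Hdac2 ECKO against WT (1.37, edgeR adjusted p = 0.042).

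Of 288 fold changes of the 9 genes under settings with all libraries, 271 kept direction and side of the threshold, 13 newly passed and 4 changed sign: Apln in the Ezh2-labelled libraries with quality weights (1.5), Cxcr4 in Hdac2 ECKO with the replicate block (−0.028), and Adm (0.11) and Pdgfb (0.23) in the Ezh2-labelled libraries with the length and GC trend removed. Of 162 with a library left out, 145 kept both, 3 newly passed and 14 changed sign. The ranges that crossed 0 were, in Hdac2 ECKO, Esm1 −1.07 to 0.040, Cxcr4 −0.92 to 1.28 and Trp53i11 −0.062 to 0.82. In the Ezh2-labelled libraries they were Apln −2.13 to 0.51, Aplnr −0.57 to 0.088, Adm −0.65 to 0.28 and Pdgfb −0.25 to 0.041. In beta-catenin GOF they were Adm −0.44 to 1.17, Pdgfb −0.034 to 0.22 and Trp53i11 −0.27 to 0.62. A mean count of at least 50 left Aplnr, Cxcr4 and Trp53i11 untested. With each library left out, all genes passing numbered 0 to 2215 in Hdac2 ECKO, 2 to 2329 in the Ezh2-labelled libraries and 0 to 4 in beta-catenin GOF; over the other settings they numbered 814 to 5374, 17 to 3743 and 0 to 157. The median fold change of all genes in Hdac2 ECKO shifted by 0.25 with library size alone, 0.14 with no filter and −0.12 with the length and GC trend removed. Low counts limit Apln, Aplnr, Cxcr4 and Trp53i11.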

Other observations

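Of the other tip-cell genes, 3 are given here that were chosen after their values were seen, and none passed. Nid1, a basement-membrane nidogen, was at 17.1 CPM in WT, 32.4 in Hdac2 ECKO, 32.7 in the Ezh2-labelled libraries and 32.6 in beta-catenin GOF, and all mutant libraries lay above WT (edgeR adjusted p 0.060, 0.091 and 0.66). Col4a1, a chain of basement-membrane collagen, was at 103 CPM in WT, 171 in Hdac2 ECKO, 165 in the Ezh2-labelled libraries and 137 in beta-catenin GOF, also without overlap (edgeR adjusted p 0.056, 0.10 and 0.89). Plvap, a marker of fenestrated and leaky endothelium, was at 10.1, 16.8 and 1.25 CPM in WT (9.40 ± 7.82, SD, n = 3) and averaged 1.45 ± 0.775 CPM in Hdac2 ECKO, 0.720 ± 0.336 in the Ezh2-labelled libraries and 0.970 ± 0.920 in beta-catenin GOF. Replicate 3 of WT overlapped Hdac2 ECKO and beta-catenin GOF (edgeR adjusted p 0.076, 0.071 and 0.60).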
